A study of Mus musculus with 22 samples.

Results

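Clock, Arntl, Arntl2 and Rora are 4 transcription factors on the activating side of the mammalian circadian clock, and their RNA was followed through the day in mouse kidney with and without the Clock gene. They were chosen by name as core activators, with earlier results of these data known, and are 4 of 13967 genes tested. Each has a single probe set with 1 gene symbol in the platform annotation, and all 4 passed the filter on dim probe sets. Affymetrix whole-transcript arrays were hybridised with RNA of 11 Clock-deficient pools, labelled clock(-/-) and called KO here, and 11 wild-type (WT) pools. Every pool combined the RNA of 2 or 3 mice, so single animals are not resolved. All mice came from a colony founded with heterozygous clock(+/-) breeders, had 2 weeks of 12 h light and 12 h dark, and then spent 30 h in constant darkness. The labels give neither age nor sex, and do not say which part of Clock is deleted or in which tissues. Kidneys, named whole in one label and left in another, were collected at zeitgeber times (ZT) 0, 4, 8, 12, 16 and 20. ZT is counted from lights on at ZT0 with lights off at ZT12, in the light schedule that came before the darkness. Each genotype has 2 pools per time, apart from a single KO pool at ZT16 and a single WT pool at ZT8. The labels do not say whether pools came from separate litters, so p-values cover only how these pools varied.

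CLOCK and ARNTL (also called BMAL1) pair through their PAS domains, bind E-box sequences and switch on the Per, Cry, Nr1d1, Nr1d2 and Dbp genes. PER and CRY proteins then block that pair. Arntl itself sits in a second loop, in which the nuclear receptor RORA activates, and the REV-ERB receptors encoded by Nr1d1 and Nr1d2 repress, through the same response element, the RORE. NPAS2 can take the place of CLOCK as partner of ARNTL in some tissues, and ARNTL2 (BMAL2) is a paralog of ARNTL that is also able to pair with CLOCK. Npas2 was not analysed here.

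The start regions of the genes show where those loops could act, and 3 of them are printed because they hold the RORE letters in Arntl, in Clock, and in Nfil3, a RORE-driven gene described below. Sequences are RefSeq windows of 300 bases on GRCm38.p6, from 250 bases before to 50 after an annotated gene start, 5′ to 3′ on the gene's strand, with each AGGTCA core in capitals (TGACCT where it lies on the opposite strand). The Arntl window lies at chr7:113207261-113207560 on the plus strand, that of Clock at chr5:76303453-76303752 on the minus strand, and that of Nfil3 at chr13:52980990-52981289 on the minus strand.
Arntl: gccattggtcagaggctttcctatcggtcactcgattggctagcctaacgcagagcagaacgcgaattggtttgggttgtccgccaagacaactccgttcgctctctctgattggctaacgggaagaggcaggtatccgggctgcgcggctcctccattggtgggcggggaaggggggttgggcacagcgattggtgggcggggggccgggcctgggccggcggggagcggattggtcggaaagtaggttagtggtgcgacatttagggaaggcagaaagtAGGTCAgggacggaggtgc
Clock: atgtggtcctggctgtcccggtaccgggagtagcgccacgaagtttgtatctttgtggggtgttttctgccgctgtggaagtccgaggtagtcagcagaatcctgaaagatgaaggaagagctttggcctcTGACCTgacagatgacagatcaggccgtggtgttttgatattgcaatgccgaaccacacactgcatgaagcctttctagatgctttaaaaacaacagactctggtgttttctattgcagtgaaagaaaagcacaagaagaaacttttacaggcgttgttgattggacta
Nfil3: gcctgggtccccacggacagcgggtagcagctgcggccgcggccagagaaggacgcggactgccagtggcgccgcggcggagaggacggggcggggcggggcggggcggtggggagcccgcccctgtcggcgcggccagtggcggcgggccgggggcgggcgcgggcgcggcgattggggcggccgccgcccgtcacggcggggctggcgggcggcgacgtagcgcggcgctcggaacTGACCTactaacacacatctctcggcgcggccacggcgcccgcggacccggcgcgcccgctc
In Arntl the core lies at bases 282 to 287 of the window, 31 bases after the start, and is preceded by a T, as in the longer RORE form, which was searched as TAGGTCA after 3 bases of any kind. In Clock, of whose 3 listed starts the last is shown, the plain core lies at bases 132 to 137. In Nfil3 the longer form lies at bases 239 to 248. Both strands were searched, and the plain core is contained in the longer form. All 4 genes matched the table, with 7 windows between them, of which 2 hold AGGTCA and 1 holds the longer form, where 16.3% and 2.58% of all 32851 windows listed do. Of the other genes described below, the windows of Cry1 and Nr1d1 hold no AGGTCA, and that of Nr1d2 holds the plain core at base 174. None of the 7 windows holds the E-box CACGTG (7.15% of all windows), the variant CACGTT (4.68%) or the D-box TTATGNAA (3.38%). A match is a description of letters and not evidence of binding, and a missing match says only that the letters are not in that window.

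Levels are on the log2 scale after RMA, the authors' normalization, so a step of 1 is a doubling. Array medians were 5.88 to 6.01, correlations between any pair of arrays were 0.980 to 0.994, and 0 pairs of arrays were identical. All 9 kidney markers found on the table passed the filter, with a log2 summed level of 15.3 in KO arrays and 15.2 to 15.3 in WT arrays. Of these 9, 3 were called in level over the cycle, 2 higher and 1 lower, where 5.23% of all genes were called higher and 3.9% lower. KO minus WT was 0.20 ± 0.04 log2 for the glucose transporter Slc5a2 (adjusted p = 0.00262), 0.14 ± 0.03 for the proton pump subunit Atp6v1b1 (adjusted p = 0.00975) and -0.09 ± 0.03 for Umod (adjusted p = 0.0396). These sizes are like those of Clock and Rora below, and their part in those results was not tested. Of other tissues, 0 of 5 adrenal markers, 4 of 5 adipose, 3 of 4 blood and immune, 3 of 4 skeletal muscle and 3 of 3 liver markers passed, the last including Ttr and Cyp2e1, which kidney also expresses. Several arrays stood apart. Ugt2b38, a gene with a large KO to WT difference, read 10.6 in KO ZT8 pool 2 and 10.9 in KO ZT12 pool 2, against 6.50 to 8.20 in the other KO arrays, and 10.5 in WT ZT4 pool 2, against 11.7 to 12.4 in the other WT arrays. These 3 arrays lay between the genotypes, and whether their pools hold RNA of both was not tested. They were picked for this after seeing the data. Fits without them therefore favour wider gaps between KO and WT, and are not separate support. The KO values at ZT8 and ZT12 and the WT value at ZT4 include them. Both KO pools at ZT20 were low in Slco1a1, at 6.30 and 5.18, where the other KO arrays read 8.15 to 10.5. KO ZT8 pool 1 carried the most fat RNA, with Adipoq at 7.75 and Ucp1 at 8.34, against at most 6.46 and 6.85 in every other KO array, and the 5 adipose markers summed to 7.49 to 9.74 in KO arrays and 7.66 to 8.53 in WT arrays. The part of fat RNA in the results was not tested beyond leaving that array out.

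The targeted gene comes first. Averaged over the cycle, Clock RNA was not lower in the KO pools, and its 24 h wave was called only in WT. Log2 values in KO kidneys of Clock were, pool 1 with pool 2, for the ZT0 pools 9.02 with 9.002, the ZT4 pools 8.85 with 8.97, the ZT8 pools 8.98 with 8.73, the ZT12 pools 8.90 with 8.89, the ZT16 pool 9.10 and the ZT20 pools 8.96 with 9.11. In WT kidneys they were for the ZT0 pools 9.16 with 9.10, the ZT4 pools 8.81 with 8.91, the ZT8 pool 8.49, the ZT12 pools 8.63 with 8.47, the ZT16 pools 8.87 with 8.93 and the ZT20 pools 9.06 with 9.01. All KO pools lay above all WT pools at ZT8, ZT12 and ZT16 and below them at ZT0, and the pools overlapped at ZT4 and ZT20. Among all genes, 34.8% had KO pools above at ZT8, 15.8% at ZT12 and 34.6% at ZT16, and 14.1% had them below at ZT0, so the separation alone is common. A probe set reads the whole transcript, and the deleted part is not named, so this signal does not check the genotype labels. KO minus WT of Clock was 0.36 ± 0.12 log2 at ZT8 (adjusted p = 0.740) and 0.34 ± 0.09 at ZT12 (adjusted p = 0.236), and between -0.12 and 0.20 at the other times, with none called. Without the 3 arrays between the genotypes the ZT8 difference was 0.49 ± 0.13 (adjusted p = 0.382).

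The WT wave of Clock had an amplitude, from fitted mean to fitted peak, of 0.31 ± 0.04 log2 (SE) and a peak at 21.99 ± 0.449 h, with an adjusted p of 1.24e-04. That is 1.55-fold from trough to peak. Over all genes, 6.48% were called rhythmic in WT. In order of level, WT Clock was lowest at ZT8 and ZT12, which did not differ beyond their pools, then came ZT4 and ZT16, which overlapped, then ZT20, and ZT0 was highest. In KO the time means covered 0.24 log2, against 0.64 in WT, and the lowest 3 times (ZT8, ZT12 and ZT4) overlapped one another in order, as did the highest 3 (ZT0, ZT20 and ZT16). The KO amplitude was 0.10 ± 0.04 and was not called (adjusted p = 0.301, where 2.46% of all genes were called in KO). The test of the difference between the KO and WT waves was not passed by Clock either (adjusted p = 0.253, unadjusted p = 0.000794), so a loss of its wave is not shown. The mean over the cycle was 0.13 ± 0.04 log2 higher in KO (adjusted p = 0.0398), with a 95% interval of 0.05 to 0.20, and 5.23% of all genes were called higher. The call was lost on leaving out any of 12 of the 22 arrays, and without the KO ZT20 pools (0.14, adjusted p = 0.0683). It held without the 3 arrays between the genotypes (0.16 ± 0.04, adjusted p = 0.0164), whose removal favours a wider gap.

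Arntl, the DNA-binding partner of CLOCK, had the largest response of the 4 genes. Its RNA fell less through the day in KO kidneys than in WT kidneys, which had a deep trough. Log2 values in KO kidneys of Arntl were, pool 1 with pool 2, for the ZT0 pools 8.41 with 8.31, the ZT4 pools 7.91 with 7.61, the ZT8 pools 7.86 with 7.04, the ZT12 pools 8.20 with 7.91, the ZT16 pool 8.69 and the ZT20 pools 8.63 with 8.64. In WT kidneys they were for the ZT0 pools 8.41 with 8.47, the ZT4 pools 7.20 with 7.74, the ZT8 pool 5.58, the ZT12 pools 5.69 with 5.58, the ZT16 pools 7.37 with 7.28 and the ZT20 pools 8.36 with 8.19. The lowest KO pool read 7.04, and the 3 WT pools at ZT8 and ZT12 read 5.58 to 5.69. At ZT0 and ZT4 the pools of both genotypes overlapped, and from ZT8 to ZT20 every KO pool lay above every WT pool. Taking each time on its own, that held for 34.8% of all genes at ZT8, 15.8% at ZT12, 34.6% at ZT16 and 30.4% at ZT20.

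**Figure D1:**
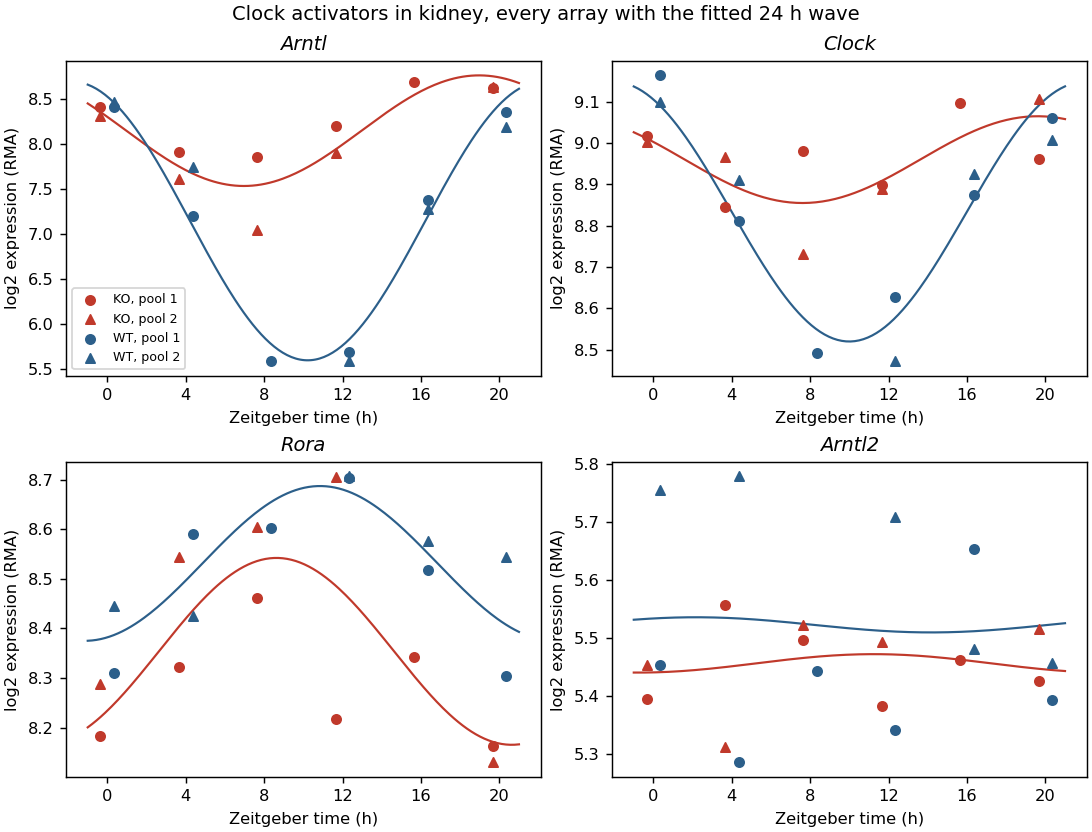
Log2 expression (vertical axes, different ranges) of Arntl, Clock, Rora and Arntl2 against zeitgeber time in h, with KO in red and WT in blue, pool 1 as circles and pool 2 as triangles, drawn side by side at each time, and the fitted 24 h wave of each genotype as a line. Arntl reaches 5.58 at ZT8 and ZT12 in WT while the lowest KO pool is at 7.04, and no wave was called for Arntl2 in either genotype.

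The gap between the genotypes was widest in the hours of the WT trough. KO minus WT was 2.42 ± 0.21 log2 at ZT12 (5.33-fold, adjusted p = 9.33e-05) and 1.87 ± 0.26 at ZT8 (3.66-fold, adjusted p = 0.0277), and both passed the test. Few genes did so at single times, with 0.122% of all genes called in either direction at ZT12 and 0.0286% at ZT8. At ZT16 the difference was 1.37 ± 0.26 (2.58-fold) and was not called (adjusted p = 0.0925, 95% interval 0.82 to 1.92, with 0.0143% of all genes called). That call was gained on leaving out any of 4 arrays, either WT ZT4 pool or either KO ZT8 pool (lowest adjusted p = 0.0215), and the difference stayed between 1.32 and 1.42 with 1 array left out. It measured 0.36 ± 0.21 at ZT20 (adjusted p = 0.365, 1.75% of all genes called), 0.29 ± 0.21 at ZT4 (adjusted p = 0.9996, 0.00716% called) and -0.07 ± 0.21 at ZT0 (adjusted p = 0.9998, 0.0286% called). For ZT0 the 95% interval ran from -0.52 to 0.38, so the pools leave room for a difference in either direction there. The ZT8 call was lost on leaving out any of 11 of 21 arrays, and without KO ZT8 pool 1, the pool with the most fat RNA, the difference was 1.46 (adjusted p = 0.148). Without the 3 arrays between the genotypes the differences were 0.55 at ZT4, 2.28 at ZT8, 2.56 at ZT12 and 1.37 at ZT16. The choice of those arrays favours wider gaps. At ZT16 the difference did not change, and its standard error fell from 0.26 to 0.13 although only arrays of other times were left out.

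**Figure D2:**
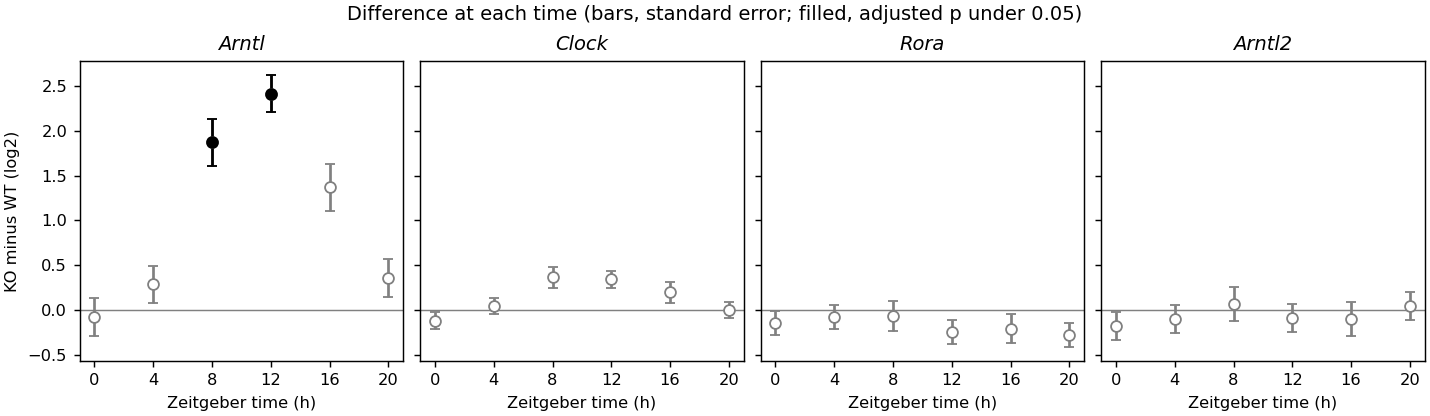
KO minus WT difference in log2 (vertical axis, shared) at each zeitgeber time in h for Arntl, Clock, Rora and Arntl2, with standard errors as bars and filled points where the adjusted p is under 0.05. The filled points are those of Arntl at ZT8 (1.87) and ZT12 (2.42), and the differences of the other 3 genes stay between -0.28 and 0.36.

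Over the whole cycle Arntl averaged 2.01-fold more RNA in KO, a level difference of 1.01 ± 0.10 log2 with a 95% interval of 0.80 to 1.22 (adjusted p = 2.38e-06). It ranked 21st of 13967 genes by the size of that difference, whose median over all genes was 0.06 in absolute value. Leaving out any single array kept the call, with differences of 0.96 to 1.08. Without the 3 arrays between the genotypes the difference was 1.17 ± 0.07, and without the KO ZT20 pools it was 1.06 ± 0.12. Within pool 1 it was 1.18 (adjusted p = 1.85e-05) and within pool 2 it was 0.77 (adjusted p = 0.211). Pool 2 holds all 3 arrays between the genotypes and has no WT ZT8 or KO ZT16 array. Their part in the smaller value was not tested.

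Arntl kept a wave in KO, smaller and with an earlier fitted peak. The KO amplitude was 0.62 ± 0.10 log2, against 1.55 ± 0.10 in WT, a ratio of 0.397 ± 0.071. From trough to peak this is 2.35-fold in KO and 8.59-fold in WT. By amplitude Arntl ranked 32nd of all genes in KO and 3rd in WT, and the wave was called in both genotypes (adjusted p = 0.00717 in KO and 8.63e-08 in WT). The fitted peak fell at 19.0 ± 0.63 h in KO and 22.2 ± 0.24 h in WT, a shift of -3.25 ± 0.67 h. Without the 3 arrays between the genotypes the peaks were at 18.3 ± 0.56 h in KO and 21.9 ± 0.17 h in WT. The test of the difference between the waves, which takes size and time together, was passed with an adjusted p of 0.00124, and 0.043% of all genes, 6 in number, passed it. The difference between the waves was 1.24 log2, and it stayed called on leaving out any single array.

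In order of level, KO Arntl ran ZT8, ZT4, ZT12, ZT0, ZT20 and ZT16 from low to high, where ZT8 overlapped with ZT4 and ZT4 with ZT12, and the later neighbours were apart. The WT order was ZT8, ZT12, ZT16, ZT4, ZT20 and ZT0, with a step of 1.69 log2 between ZT12 and ZT16 and overlap between ZT16 and ZT4. WT ZT8, a single pool, differed from the ZT12 mean by 0.06, less than the 0.11 between the ZT12 pools. The largest gap between pools of a group was 0.81, at KO ZT8, and the median gap over 10 groups was 0.14. The call of the KO wave depends on which arrays are used. Without the KO ZT20 pools the amplitude was 0.71 (adjusted p = 0.111), without the 3 arrays between the genotypes it was 0.50 (adjusted p = 0.00609), and without all 5 it was 0.56 (adjusted p = 0.0972).

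Rora, a RORE-binding receptor that can activate Arntl, was slightly lower in KO. Log2 values in KO kidneys of Rora were, pool 1 with pool 2, for the ZT0 pools 8.18 with 8.29, the ZT4 pools 8.32 with 8.54, the ZT8 pools 8.46 with 8.60, the ZT12 pools 8.22 with 8.70, the ZT16 pool 8.34 and the ZT20 pools 8.16 with 8.13. In WT kidneys they were for the ZT0 pools 8.31 with 8.45, the ZT4 pools 8.59 with 8.43, the ZT8 pool 8.60, the ZT12 pools 8.70 with 8.71, the ZT16 pools 8.52 with 8.58 and the ZT20 pools 8.30 with 8.54. KO pools lay below WT pools at ZT0, ZT16 and ZT20, where 14.1%, 30.4% and 22.6% of all genes did so, and overlapped with them at ZT4, ZT8 and ZT12. The pools of KO ZT12 were 0.49 apart, and the higher of them, pool 2, is an array between the genotypes that read as high as WT.

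The level of Rora over the cycle was lower in KO, with KO minus WT at -0.18 ± 0.05 log2 (1.13-fold lower, adjusted p = 0.0269), with a 95% interval of -0.28 to -0.07. Over all genes, 3.9% were called lower. The call was lost on leaving out any of 4 arrays, KO ZT8 pool 1 (-0.17, adjusted p = 0.0509), KO ZT20 pool 2, WT ZT4 pool 1 and WT ZT12 pool 2. The difference measured -0.24 ± 0.05 without the 3 arrays between the genotypes (adjusted p = 0.00301) and -0.17 ± 0.06 without the KO ZT20 pools (adjusted p = 0.122). Within pool 1 it was -0.22 (adjusted p = 0.0526) and within pool 2, which holds all 3 arrays between the genotypes, it was -0.10 (adjusted p = 0.608). At single times the difference ran from -0.28 ± 0.14 at ZT20 to -0.07 ± 0.17 at ZT8, negative at all 6 and called at 0, with adjusted p of 0.287 to 0.9998. By unadjusted p under 0.05 the count was also 0 of 6, the lowest being 0.0593. With 1 array left out the difference was -0.40 to -0.16 at ZT20, -0.49 to -0.00041 at ZT12, -0.14 to 0.0024 at ZT8 and -0.19 to 0.04 at ZT4, so the sign did not hold in every fit at ZT4 and ZT8. Without the 3 arrays between the genotypes ZT12 had the largest difference, -0.49 ± 0.13 (adjusted p = 0.184), and ZT4 measured -0.16 ± 0.13.

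**Figure D3:**
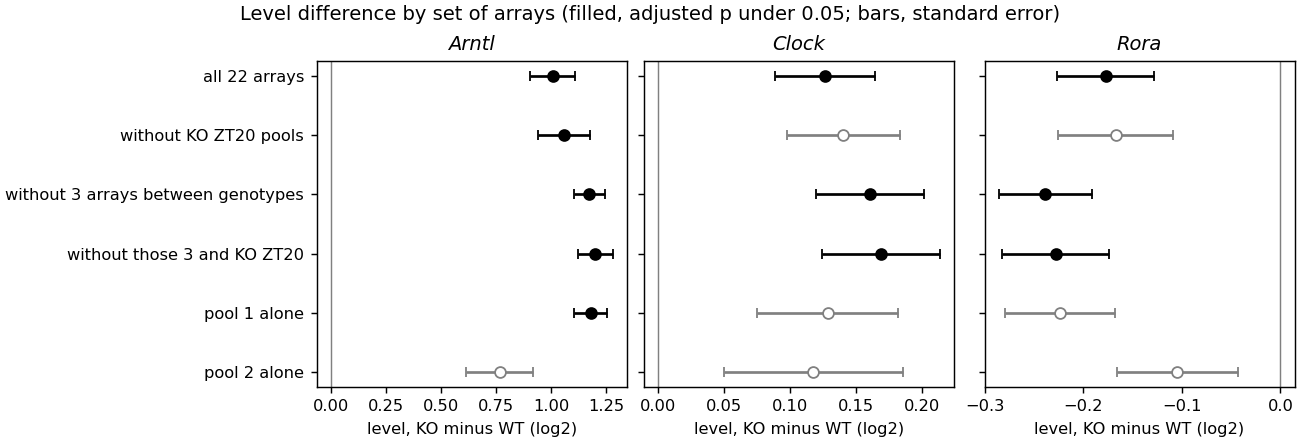
KO minus WT level over the cycle in log2 (horizontal axes, different ranges) for Arntl, Clock and Rora, fitted to 6 sets of arrays named on the vertical axis, with standard errors as bars and filled points where the adjusted p is under 0.05. Arntl lies at 0.77 or above, Clock between 0.12 and 0.17 and Rora between -0.24 and -0.10, each on the same side of 0 in every set.

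Rora had a shallow wave that was not called in either genotype. The amplitude was 0.19 ± 0.05 log2 in KO (adjusted p = 0.0801, unadjusted p = 0.00288) and 0.16 ± 0.05 in WT (adjusted p = 0.126, unadjusted p = 0.0172). Without KO ZT12 pool 1 the KO wave was called (0.23, adjusted p = 0.0166). The fitted peaks were at 8.63 ± 1.04 h in KO and 10.9 ± 1.21 h in WT. The difference between the waves was 0.10 log2 (adjusted p = 0.813). In order of level, KO Rora was lowest at ZT20, ZT0 and ZT16, with ZT4, ZT12 and ZT8 above and overlapping. WT Rora was lowest at ZT0 and ZT20, which overlapped, and highest at ZT12. Fitted peaks of Rora thus lay far from those of Arntl and Clock, with a Pearson r between Rora and Arntl of -0.77 over the 11 KO arrays and -0.84 over the 11 WT arrays, given as a description of arrays that share time points.

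Arntl2, the paralog of Arntl, was dim and flat. Its mean over all arrays, 5.49 log2, stood at the 34.2nd percentile of probe sets with 1 gene symbol, just above the filter at 5.21. KO arrays read from 5.31 to 5.56 with a median of 5.46, and WT arrays from 5.29 to 5.78 with a median of 5.46, so the genotypes overlapped. The highest WT arrays were pool 2 at ZT4 (5.78), ZT0 (5.76) and ZT12 (5.71). The level differed by -0.07 ± 0.06 (adjusted p = 0.501, 95% interval -0.19 to 0.06). Amplitudes were 0.02 ± 0.06 in KO and 0.01 ± 0.06 in WT, and the time means covered 0.09 in KO and 0.18 in WT, with overlap between all neighbours in either order. At ZT0 and ZT16 its KO pools lay below its WT pools and at ZT8 above, where 14.1%, 30.4% and 34.8% of all genes did so. The pools overlapped at the other times.

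Genes whose pattern over the 11 WT arrays was most like each activator, by Pearson r, were listed with their r over the 11 KO arrays. For Arntl these were Clock (r = 0.816 in KO and 0.977 in WT), the laminin receptor subunit Itga6 (0.823 and 0.9746) and the bile acid transporter Slc10a2 (0.467 and 0.974). The most opposite were Dbp, a D-box activator driven through E-boxes (-0.825 in KO and -0.991 in WT), and the imino acid transporter Slc6a20a (-0.766 and -0.982). Clock had Arntl, Slc10a2 (0.514 and 0.972) and Spsb3 (0.774 and 0.966) as closest, and Dbp (-0.705 and -0.981) and Slc6a20a (-0.605 and -0.955) as most opposite. For Rora the closest were Mad2l2, a DNA repair and cell cycle factor (0.345 and 0.934), the peroxisomal oxidase Acox3 (0.841 and 0.924) and the phosphatidate phosphatase Lpin1 (0.883 and 0.924), and the most opposite were the cadherin Cdh6 (-0.685 and -0.936) and the basement membrane protein Nid2 (-0.620 and -0.925). For Arntl2 they were Bbs10, Rps6kc1 and Nfkbiz, at -0.381 to 0.054 in KO and 0.818 to 0.833 in WT, and the most opposite were Rps19-ps3 (0.527 in KO and -0.888 in WT) and Zfpl1 (-0.279 and -0.882). The arrays of a genotype share their time points, and these r are descriptions. Among the 11 WT arrays, 30 genes had an r over 0.9 with Arntl, 25 with Clock, 12 with Rora and 0 with Arntl2.

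Some of those neighbours were also called in level, where 5.23% of all genes were called higher and 3.9% lower. KO minus WT over the cycle was 0.47 ± 0.07 log2 for Itga6 (adjusted p = 0.000236) and 0.36 ± 0.08 for Slc10a2 (adjusted p = 0.00522). The difference was -0.33 ± 0.06 for Acox3 (adjusted p = 0.000750), -0.34 ± 0.07 for Lpin1 (adjusted p = 0.00368) and -0.18 ± 0.04 for Mad2l2 (adjusted p = 0.00898). For Dbp it was -0.86 ± 0.22 (adjusted p = 0.0158). By size alone, with calls not given here, it was 0.44 for Cdh6, 0.18 for Nid2 and 0.08 for Spsb3. Slc6a20a, most opposite to Arntl and Clock after Dbp, was also higher in KO by size, at 0.13. Neighbours of Arntl2 lay between -0.10 and 0.13. At ZT12, the time of the largest gap in Arntl, Itga6 differed by 0.95 ± 0.16 (adjusted p = 0.0244).

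The repressors that share the RORE with RORA were lower in KO over the cycle. Their gaps were widest at ZT8 and ZT12 for Nr1d1 and at ZT12 and ZT16 for Nr1d2. KO minus WT of Nr1d1 was -1.68 ± 0.36 log2 at ZT8 (8.51 in KO and 10.2 in WT) and -1.28 ± 0.29 at ZT12, and that of Nr1d2 was -0.82 ± 0.30 at ZT8 and -1.21 ± 0.24 at ZT12, with its widest gap, -1.42 ± 0.30, at ZT16. None of these was called at a single time (adjusted p of 0.0659 to 0.808), where few genes were, 0.0286% at ZT8, 0.122% at ZT12 and 0.0143% at ZT16. The level difference over the cycle was -0.55 ± 0.12 for Nr1d1 (adjusted p = 0.00470) and -0.67 ± 0.10 for Nr1d2 (adjusted p = 0.000157). These 2 genes and the Arntl values come from the same arrays, including those between the genotypes.

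Of 9 listed RORE-driven genes, 5 were tested, and 4 were called higher in KO (Arntl, Cry1, Nfil3 and Clock) and 1 lower (Nr1d1), with a median of 0.55 log2, against a median of 0.00 over all genes and 5.23% and 3.9% of all genes called higher and lower. This list contains Arntl and Clock themselves. The counts were also 4 and 1 without the 3 arrays between the genotypes, and 3 and 1 without the KO ZT20 pools. Nfil3, a repressor of D-box promoters whose window is printed above, differed by 1.33 ± 0.24 at ZT12 (7.84 in KO and 6.52 in WT, adjusted p = 0.0452) and by -0.13 ± 0.24 at ZT0. Cry1, which blocks CLOCK and ARNTL, had its gap earlier, at 1.39 ± 0.18 at ZT4 (adjusted p = 0.0186) and 1.44 ± 0.22 at ZT8 (adjusted p = 0.0429).

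Genes driven through E-boxes, the direct targets of the CLOCK and ARNTL pair, were mostly lower or not called while Arntl was higher. Of 17 listed, 16 were tested, and 7 were called lower (Ciart, Dbp, Nr1d2, Nr1d1, Per3, Tef and Usp2), 1 higher (Cry1) and 8 not called, with a median of -0.21 log2, where 3.9% of all genes were called lower and 5.23% higher. All 16 were called rhythmic in WT, against 6.48% of all genes, and 6 in KO, against 2.46%. Without the 3 arrays between the genotypes 10 were called lower and 1 higher, and without the KO ZT20 pools 7 and 1. Without those pools 1 of the 16 was rhythmic in KO, where the count over all genes was 12, against 343 with all arrays, and at an unadjusted p under 0.05 the count was 14 of 16 in both cases. The lists overlap, so their counts are not separate. Dbp averaged 8.45 in KO and 10.6 in WT at ZT12, a difference of -2.10 ± 0.52 that was not called at that time (adjusted p = 0.153), and the KO ZT8 and ZT12 arrays between the genotypes read 9.69 and 9.39 for Dbp where the other KO pools of those times read 8.04 and 7.51. The largest WT amplitudes of the list were those of Ciart (2.07 ± 0.26), Dbp (1.91 ± 0.23), Nr1d1 (1.54 ± 0.12) and Nr1d2 (1.08 ± 0.10), with Arntl at 1.55 ± 0.10 beside them.

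**Figure D4:**
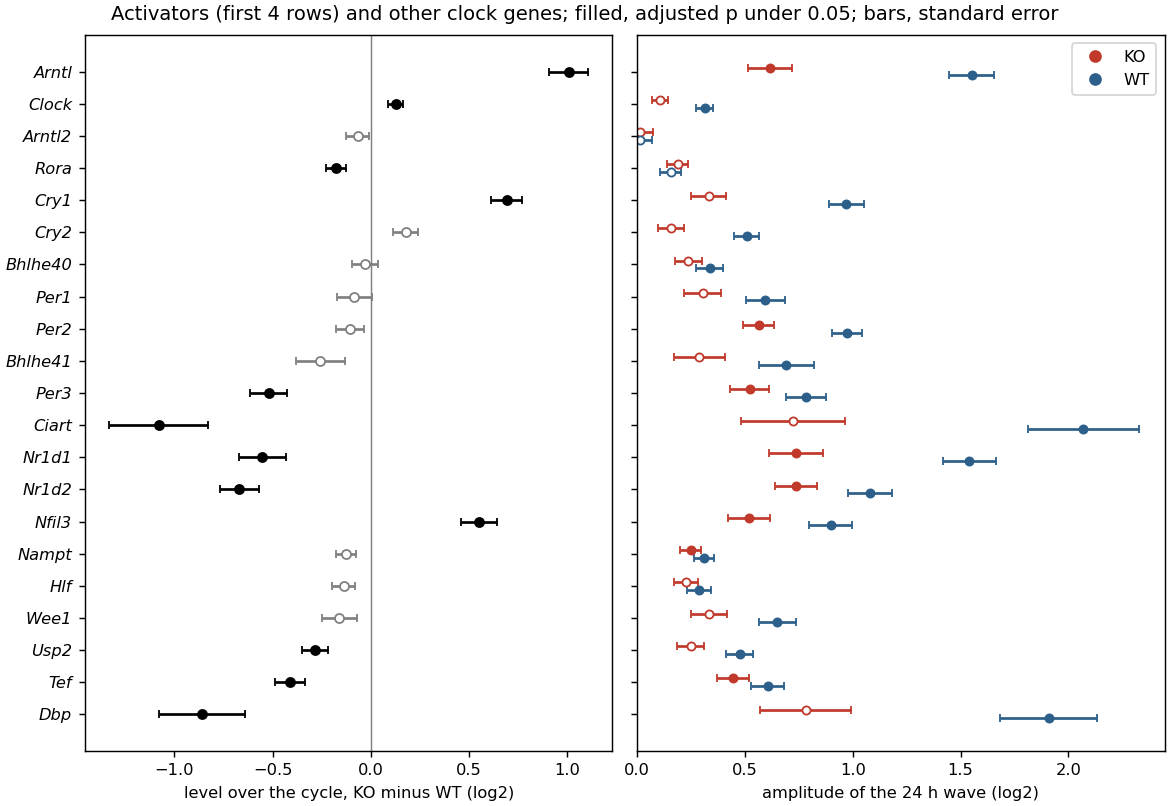
Left, KO minus WT level over the cycle in log2 for the 4 activators (first rows) and 17 other clock genes, with filled points where the adjusted p is under 0.05. Right, amplitude of the fitted 24 h wave in log2 in KO (red) and WT (blue), filled where the wave was called, with standard errors as bars in both panels. Arntl is the highest at 1.01 on the left, and its amplitude is 0.62 in KO and 1.55 in WT on the right.

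Of the other paralogs, Arnt and Arnt2, which partner different bHLH-PAS proteins, were the 2 tested of 5 listed, and neither was called in level (0.06 ± 0.04 and -0.12 ± 0.04, adjusted p = 0.328 and 0.0675) or rhythm. Over all genes, 5.23% were called higher, 3.9% lower, 6.48% rhythmic in WT and 2.46% in KO, so 2 genes without a call are not unusual. Whole-kidney RNA mixes all segments, so fewer cells of a type and less RNA per cell cannot be told apart in any of these values.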

How the data were processed

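RNA of 22 kidney pools was measured on Affymetrix whole-transcript arrays. The authors deposited log2 values, 1 per probe set and array, and the submitters' processing notes name RMA as the method. For the software version and build, the sources used here give nothing. RMA would largely remove a shift shared by most genes, though array medians still ran from 5.88 to 6.01. Of 35556 probe sets, 21789 have 1 gene symbol, 1621 several and 12146 none in the platform annotation. By gene number, 21698 matched RefSeq (GRCm38.p6). A probe set with 1 symbol was tested if its mean over all arrays reached the 30th percentile of such sets, and the brightest per gene was kept.

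With limma 3.58.1 in R 4.3.3, a mean, cosine and sine of a 24 h period were fitted per genotype to all arrays (16 residual degrees of freedom), and 12 group means for single times (10 degrees), where a group of 1 pool is taken to vary like the rest. Adjusted p are limma's, Benjamini-Hochberg over 13967 genes (at each time on its own), called under 0.05. Errors after ± are standard errors, by the delta method for amplitude and peak time. The models were also run on simulated data with independent noise in every array. Such data do not imitate shared pool deviations or arrays between the genotypes, and no result here rests on them. Same-numbered pools deviated together with correlations of 0.361, 0.394, 0.004 and 0.181 at ZT0, ZT4, ZT12 and ZT20, not all over 0.1, so numbers were not treated as pairs.

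Members, lists and the named genes (the 4 activators, the 3 most and 2 least alike genes in WT, and listed clock genes) were chosen with earlier results of these data known. Arrays are not read counts, and their number limits the precision.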

Additional observations from a re-analysis of the deposited data

Results flagged for a closer look

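The wave of Arntl differed between KO and WT by 1.24 log2 (adjusted p = 0.00124), with a smaller amplitude and an earlier fitted peak in KO. With any single array left out the amplitude was 0.51 to 0.68 in KO and 1.48 to 1.60 in WT. Nr1d1, the REV-ERB repressor of Arntl, also had waves that differed between the genotypes, by 1.06 log2 (adjusted p = 0.0316), with an amplitude of 0.74 in KO and 1.54 in WT. Both were singled out because a test of the difference between the genotypes itself was passed. The call of Nr1d1 was less stable than that of Arntl. With a free level at each time 1 gene passed that test, Arntl, so Nr1d1 lost its call. With 1 array left out 1 to 11 genes passed, Arntl in every fit, so Nr1d1 was not called in all of them. In pool 2 alone 0 genes passed. An earlier fitted peak in KO was not particular to Arntl, and Nr1d1 peaked at 4.35 h in KO and 6.90 h in WT. Of the tested RORE-driven and E-box-driven genes, only Ciart had a later fitted peak in KO (10.5 h, against 10.2 h in WT). Many of those KO waves were not called.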

How the results depend on the processing

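The level, WT wave and difference between waves of Arntl stayed called with any single array left out and under the other alternatives, except in pool 2 alone the level (0.77) and the difference between waves (1.15). The KO wave of Arntl was not called in pool 1 alone (0.45), pool 2 alone (0.76), without the KO ZT20 pools (0.71), without those and the 3 arrays between the genotypes (0.56) or with a free level at each time (0.62). Arntl at ZT8 lost its call with no filter (adjusted p = 0.0529), and ZT16 gained it without the 3 arrays (adjusted p = 0.00126) and in 4 fits with 1 array left out (1.32 to 1.42 over all of them). The WT wave of Clock was not called in pool 1 (0.32) or pool 2 alone (0.30). Its level was not called with no filter (0.13), repeated quantile normalization (0.11), pool 1 (0.13) or 2 (0.12) alone, without the KO ZT20 pools (0.14) or with a free level (0.14), and leaving out 1 array gave 0.11 to 0.14. The level of Rora was not called with array medians subtracted (-0.15), in pool 1 (-0.22) or 2 (-0.10) alone, without the KO ZT20 pools (-0.17) or with a free level (-0.17), and ran from -0.21 to -0.14 with 1 array left out, losing its call in 4 fits (WT ZT4 pool 1, WT ZT12 pool 2, KO ZT8 pool 1 and KO ZT20 pool 2). The KO wave of Rora was called with array weights (0.20) and with the replicate block, the pool number as a term (0.18, adjusted p = 0.0449), and ran from 0.17 to 0.23 with 1 array left out, gaining its call without KO ZT12 pool 1 (adjusted p = 0.0166). The block changed no other call of the 4 genes and gave 1405 level calls and 416 KO waves. The cause of these changes was not tested.

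Of all genes, 1276 were called in level, 905 for a WT wave, 343 for a KO wave and 6 for a difference between waves. The 6 single times gave 272 calls, counted per gene and time, of which 244 were at ZT20. Level counts were 2351 with array weights, 565 in pool 1, 1 in pool 2, 639 without the KO ZT20 pools and 823 with a free level. WT waves numbered 95 in pool 1, 14 in pool 2, 595 without the 3 arrays between the genotypes, 534 also without the KO ZT20 pools, 140 with a free level and 363 from WT arrays alone, and 602 to 954 with 1 array left out. KO waves numbered 228 with no filter, 697 with array weights, 0 in pool 1 and 0 in pool 2 by limma (1112 and 1317 at an unadjusted p under 0.05), 12 without the KO ZT20 pools, 58 without the 3 arrays, 2 without all 5, 59 with a free level and 195 from KO arrays alone, and 77 to 477 with 1 array left out. Differences between waves numbered 10 with a 50th percentile filter, 11 with array weights, 3 in pool 1, 0 in pool 2 (620 unadjusted), 3 without the KO ZT20 pools, 20 without the 3 arrays, 12 without all 5 and 1 with a free level, and 1 to 11 with 1 array left out. Single times gave 172 calls with no filter and 39 to 474 with 1 array left out. Subtracting array medians turned the called genes from 731 higher and 545 lower into 1111 and 343. Leaving out the 3 arrays, with or without the KO ZT20 pools, was added after seeing the data. Arntl2 was below the 50th percentile and has no value there.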

Other observations

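Of 15 tested cofactors, which include the acetyltransferases Crebbp and Ep300 and the coactivator Ppargc1a, 0 were called in level by limma (5 at an unadjusted p under 0.05), where 5.23% of all genes were called higher and 3.9% lower. A WT wave was called for 2, against 6.48% of all genes, the acetyltransferase Kat2b (0.18 log2) and the demethylase Kdm5a (0.20), with 0 called in KO (2 unadjusted), against 2.46% of all genes. Of 16 tested kinases, ligases and other modifiers, 1 was called in level, the deubiquitinase Usp2 (-0.28 ± 0.07), where 3.9% of all genes were called lower and 5.23% higher. A WT wave was called for 4 of these 16 (Usp2, Btrc, Cipc and Fbxl21), against 6.48% of all genes, and a KO wave for 1, against 2.46%. Fbxl21, a ubiquitin ligase subunit for CRY proteins, had a wave in both genotypes, with amplitudes of 0.40 ± 0.07 in KO and 0.42 ± 0.08 in WT and fitted peaks at 6.51 h in KO and 6.81 h in WT, and a difference between the waves of 0.04 (adjusted p = 0.982).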
